A study of Rattus norvegicus with 30 samples.

Results

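The methylation of autosomal CpG sites was compared between aged rats that were impaired and aged rats that were unimpaired in behavioral flexibility, with the sites averaged over fixed windows of 1 Mb. The 20 aged rats are part of a series of 30 male Fischer 344 rats whose medial prefrontal cortex (mPFC) DNA was examined by whole genome bisulfite sequencing, the other 10 being young. The aged rats were 17 to 22 months old and the young rats 5 to 6 months. The aged rats were divided into aged impaired (AI, 9 rats) and aged unimpaired (AU, 11 rats) by the number of trials they needed in a set-shifting task. The groups are therefore both sides of the mean of 1 continuous score, and both are aged. In a block of tissue, a change in methylation within a cell type and a change in the mix of cell types cannot be told apart.

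In the calls made for the AI and AU rats, 75467 CpG sites were autosomal. They lay in 2484 windows, of which 1603 held the minimum of 10 sites and were kept, while 881 held fewer. The kept windows covered 71423 sites. A window held 10 to 1560 sites with a median of 24, so that a window is a small and uneven sample of its CpGs. The sites of the median window formed 7 clusters separated by at least 1000 bp, and 50% of them lay in the densest 100 kb. At the minimum, the 83 windows with 9 sites had a median level of 0.760 and a median SD between rats of 0.0970, and the 72 windows with 10 sites had a median level of 0.778 and a median SD of 0.0969. Each rat contributed the mean of its own ratios in a window, where a ratio is the methylated share of the reads at a site. The number of autosomal CpG sites with a value lay between 24898 and 65420 in AI rats (median 45219), and between 19866 and 61095 in AU rats (median 53669). The groups overlapped across nearly the whole range and the means did not differ beyond the spread between rats (difference of 1702 sites, exact permutation test, 2-sided, p = 0.793).

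CpG methylation is the addition of a methyl group to cytosines followed by guanine. In mammalian brain most CpGs outside of CpG islands are methylated, and methylation at promoters is associated with silencing, whereas methylation over gene bodies is common in expressed genes. Averaging over a window asks whether a broad stretch of a chromosome is more or less methylated in 1 group. The spread between rats asks another question, namely whether the rats of 1 group are less alike than those of the other.

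The levels of the windows were high in both groups and lay close to each other. The level over all rats was 0.749 in the median window, with the middle part of the windows between 0.70 and 0.788. The median of the group means was 0.747 in AI and 0.749 in AU rats, and across windows the group means followed each other (Pearson's r = 0.939 over 1603 windows, a description, since both share the same sites). The AI mean was higher in 755 windows and lower in 848, and the median difference was -0.00166. Differences over 0.05 in either direction were found in 148 windows (9.23%).

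The windows with the highest and lowest levels show the range of the data. On chromosome 13, the window chr13:107000000-107999999 (rn5, 11 sites) had the highest level, 0.961 over the rats with a value. It was followed by chr19:62000000-62999999 (13 sites, 0.945) and chr17:15000000-15999999 (11 sites, 0.943). These windows held few sites and the first had a value in only 5 AI and 8 AU rats. The lowest level was that of chr13:95000000-95999999, with 243 sites. There the AI rats ranged from 0.124 to 0.188 (median 0.163), the AU rats ranged from 0.103 to 0.219 (median 0.151), and the difference was 0.00220 (95% confidence interval -0.0267 to 0.0311, limma). The AI rats lay wholly inside the range of the AU rats, so that this weakly methylated stretch showed no separation of the groups. The next lowest were chr19:67000000-67999999 (104 sites, 0.209) and chr19:5000000-5999999 (56 sites, 0.254), in which the difference between the groups was 0.0227 (interval -0.139 to 0.184) and 0.00417 (interval -0.0424 to 0.0507). In chr19:67000000-67999999 the number series did not overlap, as given further on. There the difference was -0.0123 among series A and -0.00239 among series B rats.

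**Figure D1:**
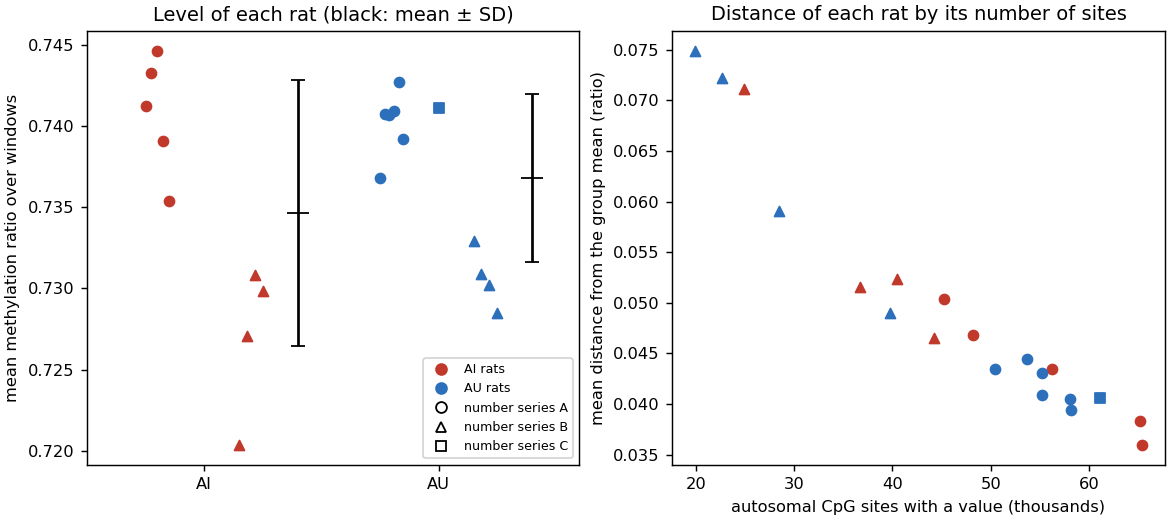
The left plot gives, for each rat, the mean methylation ratio over the windows by group, with the marker shape for the number series of the rat identifier and the mean ± SD of each group in black (the axis does not start at 0). The right plot gives the mean distance of each rat from its group mean against its number of autosomal CpG sites with a value. Rats of series B sit below those of series A in both groups, and the distance is largest for the rats with the fewest sites.

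Averaged over all windows, AI and AU rats had the same level within the spread between rats. The mean over windows lay between 0.720 and 0.745 in AI rats (median 0.735), and between 0.728 and 0.743 in AU rats (median 0.739). Of the AI rats, 2 lay below the lowest AU rat, 2 lay above the highest and the others lay between. The group mean was 0.735 ± 0.00819 (SD, 9 rats) in AI and 0.737 ± 0.00519 (SD, 11 rats) in AU rats, a difference of -0.00216 (exact permutation test, 2-sided, p = 0.481, 167960 arrangements). With the ratios centred on the mean of each site over the rats with a value there, the difference was -0.00214 (exact permutation test, p = 0.263). Centring lessens the effect of which sites a rat happens to have. As each site mean covers only the rats with a value, centring can also shrink a difference between groups or series. Without centring, every rat of number series B lay below every rat of series A within both groups.

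By chromosome, the AI mean was lower on 15 of the 20 autosomes. Read by number series, it was lower on most autosomes among series B rats but higher on most among series A rats. On chromosome 7, with 89 windows, the AI rats had a mean of -0.00858 relative to the AU rats (exact permutation test, p = 0.0266, adjusted over the 20 autosomes p = 0.429). On chromosome 17, with 55 windows, the difference was -0.00568 (exact permutation test, p = 0.0429, adjusted p = 0.429). The difference farthest from 0 was -0.0144, on chromosome 20 with 33 windows, where the p was 0.152 (exact permutation test, adjusted p = 0.784). None of the autosomes passed the adjusted threshold, and 2 had an unadjusted p under 0.05. Among series A and series B rats, the difference was -0.00577 and -0.0106 on chromosome 7 and -0.00171 and -0.0108 on chromosome 17. On chromosome 20 it was -0.00818 and -0.0269.

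Of the 1603 windows tested for level with limma, 63 had an unadjusted p under 0.05 (3.93%), whereas 80.2 would be expected at this threshold if no window differed. AI was higher in 23 of them (1.43%) and lower in 40 (2.5%). No window passed the adjusted threshold of 0.05 (0 windows, 0%), and the smallest adjusted p was 0.306. An exact permutation test in each window gave 68 windows with an unadjusted p under 0.05 (4.24%) and none after adjustment. In no window did the AI and AU rats fail to overlap. The half-width of the 95% confidence interval of the difference had a median of 0.0503, and it was 0.0765 in the 332 windows with 10 to 14 sites and 0.0311 in the 93 windows with 100 or more.

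**Figure D2:**
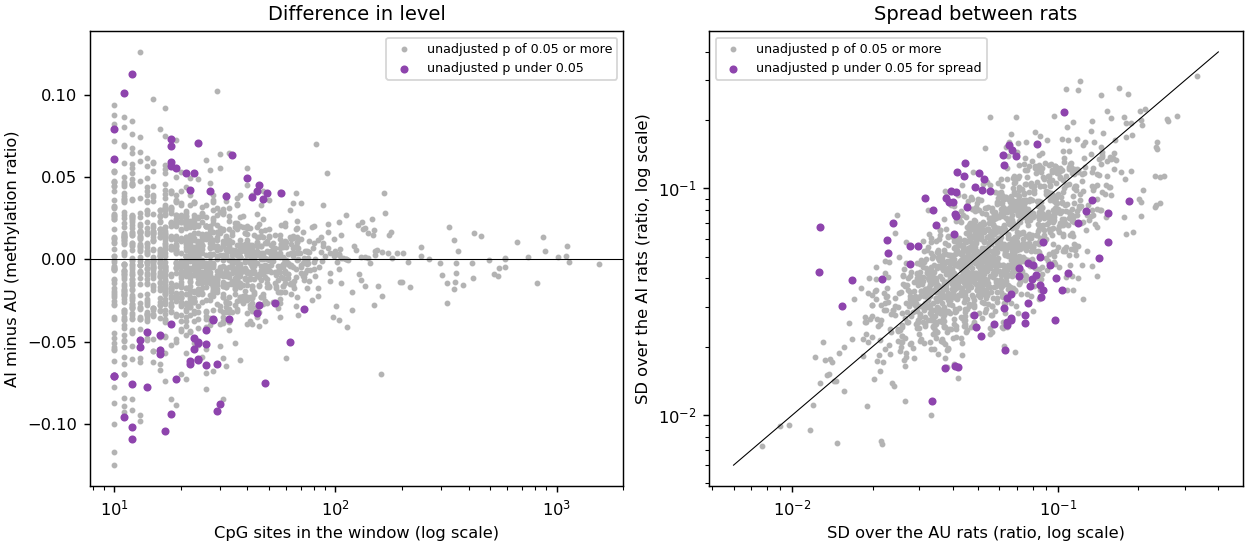
The left plot gives the difference between the AI and AU means of each of the 1603 windows against its number of CpG sites (log scale), with the windows of an unadjusted p under 0.05 in purple. The right plot gives the SD over the AI rats against the SD over the AU rats (both log scale) with the line of equality, and the windows of an unadjusted p under 0.05 for spread in purple. Differences narrow with the number of sites, and the SDs lie on both sides of the line.

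The windows named next are the 12 with the smallest p for level, 11 of them lower in AI rats, and they are given as a description because they were picked for that p. The window chr8:8000000-8999999 (rn5, 17 sites in 6 clusters) came first. The AI rats ranged from 0.656 to 0.800 (median 0.718), and the AU rats ranged from 0.739 to 0.940 (median 0.847). Every AI rat lay below the median of the AU rats and 5 lay below the lowest AU rat, while the other 4 overlapped with the AU rats. The mean was 0.733 ± 0.0505 (SD, 9 rats) in AI and 0.838 ± 0.0535 (SD, 11 rats) in AU rats. The difference was -0.105 (SE 0.0232, interval -0.153 to -0.0564, limma adjusted p = 0.306). It was -0.0807 among series A and -0.134 among series B rats, and -0.0722 with site-centred ratios.

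The window chr1:149000000-149999999 (18 sites in 3 clusters) lay between 0.608 and 0.792 in AI rats (median 0.656), and between 0.680 and 0.874 in AU rats (median 0.748). Here 7 of the 9 AI rats lay below the lowest AU rat and 1 AI rat lay above the AU median. The difference was -0.0940 (SE 0.0237, limma adjusted p = 0.564), with -0.0776 in series A and -0.114 in series B. The study lists a CpG of this window under the symbol Aff2, an assignment that was not checked here. In chr5:135000000-135999999 (14 sites) the AI rats ranged from 0.730 to 0.851 (median 0.777), and the AU rats ranged from 0.781 to 0.955 (median 0.882). Again all 9 AI rats were below the AU median, but the ranges overlapped over much of their length. The difference was -0.0778 (SE 0.0226, limma adjusted p = 0.994), and it was -0.0382 in series A and -0.131 in series B.

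In chr7:109000000-109999999 (23 sites), on the chromosome with the smallest p above, the AI rats ranged from 0.641 to 0.724 (median 0.679), and the AU rats ranged from 0.681 to 0.775 (median 0.710). The difference was -0.0477 (SE 0.0149, limma adjusted p = 0.994) and shrank to -0.0137 with site-centred ratios, the largest loss among these 12 windows. It was -0.0348 in series A and -0.0692 in series B. In chr18:47000000-47999999 (24 sites) the AI rats ranged from 0.648 to 0.753 (median 0.703), and the AU rats ranged from 0.692 to 0.812 (median 0.756). Here the difference of -0.0499 (SE 0.0156, limma adjusted p = 0.994) stayed at -0.0478 after site centring, and it was -0.0456 in series A and -0.0503 in series B rats. Of the 12, chr8:61000000-61999999 (18 sites) was the one window with the higher level in AI rats. The AI rats ranged from 0.691 to 0.889 (median 0.778), and the AU rats ranged from 0.637 to 0.776 (median 0.731), and 8 of the 9 AI rats lay above the AU median. The difference was 0.0688 (SE 0.0251), with a limma adjusted p of 0.994, and it was 0.0644 in series A and 0.0608 in series B.

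The other 6 windows of this list lay on chromosomes 3, 4, 2, 14, 13 and 7. The differences were -0.0756 in chr3:20000000-20999999, -0.102 in chr4:212000000-212999999, -0.0637 in chr2:242000000-242999999, -0.0617 in chr14:110000000-110999999, -0.0460 in chr13:91000000-91999999 and -0.0642 in chr7:38000000-38999999. All 6 had a limma adjusted p of 0.994, and their groups overlapped. In the order just given, the differences were -0.0322, -0.0592, -0.0823, -0.0381, -0.0365 and -0.0247 in series A, and -0.140, -0.176, -0.0375, -0.114, -0.0594 and -0.0997 in series B. The size of the difference in these 6 windows was thus larger in series B in all but the window on chromosome 2. Windows of this list held 12 to 26 sites, around or below the median of 24.

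**Figure D3:**
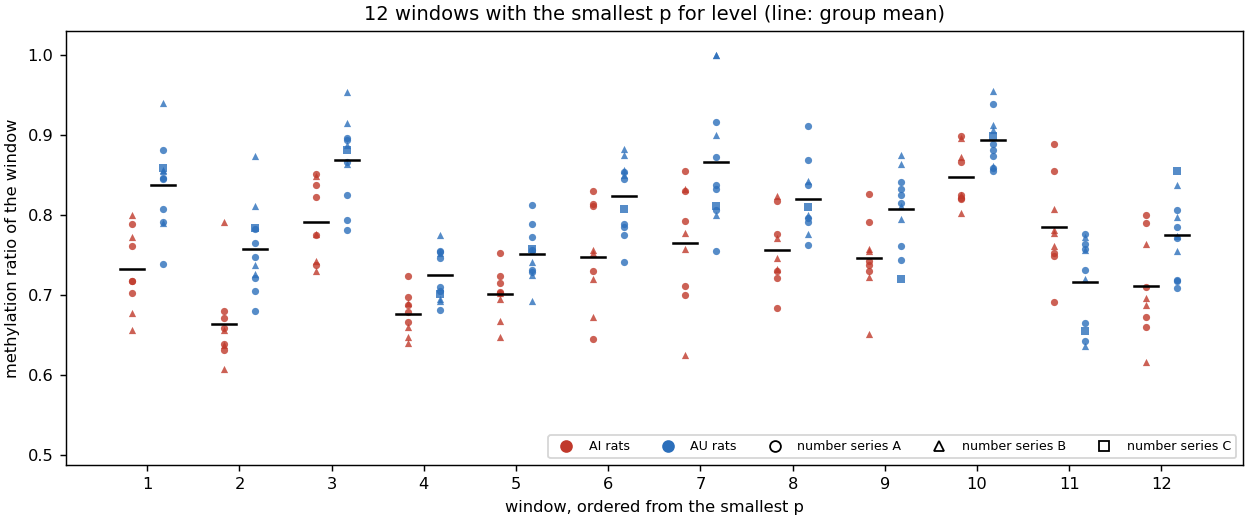
The methylation ratio of each rat is given for the 12 windows with the smallest p for level, ordered from the smallest, with AI rats on the left and AU rats on the right of each pair and a line at the group mean. The AI mean is lower in all but the 11th pair, and AI and AU rats overlap in every pair.

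In the 93 windows with 100 or more sites, where the ratio of a rat is most precise, none had an unadjusted p under 0.05 for level in limma (0 of 93, beside 3.93% of all windows), which draws on the spread of all windows. By the exact permutation test, which uses each window alone, 7 of the 93 had an unadjusted p under 0.05 (7.53%, beside 4.24% of all windows), 5 of them higher in AI rats, and the smallest p after adjustment over all windows was 0.994. The differences in these windows ranged from -0.0699 to 0.0406, and the median size was 0.00884, compared to 0.0157 in all windows. The smallest limma p among them belonged to chr5:81000000-81999999 (165 sites), in which the study lists Snx30, a member of the sorting nexins that act in endosomal traffic. The AI rats ranged from 0.70 to 0.842 (median 0.777), and the AU rats ranged from 0.604 to 0.772 (median 0.748). The difference was 0.0406 (interval -0.00159 to 0.0828, exact permutation test, unadjusted p = 0.0478), but it was -0.000612 with site-centred ratios. The smallest p by the exact permutation test, and the next smallest in limma, was in chr19:40000000-40999999 (328 sites), where the AI rats ranged from 0.694 to 0.752 (median 0.714) and the AU rats ranged from 0.681 to 0.717 (median 0.697). The difference was 0.0198 (interval -0.00169 to 0.0414, exact permutation test, unadjusted p = 0.00695) and 0.0136 after site centring, with 8 of 9 AI rats above the AU median.

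Neighbouring windows were alike in their level to a small extent and not in their differences. Over 1117 pairs of adjacent windows, the correlation was 0.146 for the level itself, -0.0231 for the difference between AI and AU rats and -0.00954 for the log2 ratio of their SDs. These are correlations across windows, which are not independent replicates, and they are given as a description.

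Within windows, the spread between rats was close in both groups. The SD over the rats of a window had a median of 0.0501 in AI and 0.0540 in AU rats. The SD was larger in AI rats in 725 windows and larger in AU rats in 878. The median of the log2 ratio of the SDs was -0.0702, which is a ratio of 0.952 (exact permutation test, 2-sided, p = 0.716). The mean distance of a rat from its group mean, corrected for the size of the group, lay between 0.0359 and 0.0711 in AI rats (median 0.0468), and between 0.0394 and 0.0749 in AU rats (median 0.0434). The means were 0.0485 ± 0.0102 (SD, 9 rats) and 0.0498 ± 0.0130 (SD, 11 rats), a difference of -0.00127 (exact permutation test with the distances computed anew for each arrangement, p = 0.856). In the calls made for aged and young rats, 1536 of the windows had values in all groups, and there the median SD was 0.0504 in AI, 0.0544 in AU and 0.0548 in young rats. The SD of means over many windows leaned the other way. The mean over all windows had an SD of 0.00819 among AI rats against 0.00519 among AU rats, as given above. For the mean over a chromosome it was larger in AI rats on 16 of the 20 autosomes, with ratios of AI over AU from 0.716 on chromosome 18 to 2.02 on chromosome 17. These SDs contain the difference between the number series given further on, and they were not tested.

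The distance of a rat followed its number of sites. Over the 20 rats, Pearson's r was -0.958 (permutation p = 1e-05, the smallest that these permutations can give, adjusted over 6 relations p = 6e-05) and Spearman's rho was -0.968 (permutation p = 1e-05, adjusted p = 3e-05). The r was -0.942 within the 11 rats of series A (permutation p = 6e-05) and -0.971 within the 8 rats of series B (exact permutation p = 0.000149). Without the 2 rats farthest from the median number of sites it was -0.944 over all rats. Likewise, the SD of a window was smaller where it held more sites, from a median of 0.0812 in AI and 0.0815 in AU rats in windows with 10 to 14 sites to 0.0259 and 0.0336 in windows with 100 or more. In these largest windows the SD was greater in AI rats in 24 of 93, whereas it was 158 of 332 in the windows with 10 to 14 sites. The remaining relations were those of the mean over windows to the number of sites. Pearson's r was 0.787 over all rats (permutation p = 3e-05) and 0.847 within series A (permutation p = 0.00145). Within series B it was -0.383 (exact permutation p = 0.393). The part of the number of sites in the levels of the groups and series was not tested.

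Agreement within a window was low. When the sites of a window were divided into odd and even ones and centred on the mean of each site, the correlation of both parts across the rats had a median of 0.120 over 1603 windows and was above 0 in 66.5% of them. The median was 0.0725 in windows with 10 to 14 sites and 0.265 in those with 100 or more. Taken within group and series, these were 0.0877 and 0.272.

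For spread, 81 of the 1603 windows had an unadjusted p under 0.05 (5.05%), in a limma fit of the distances of the rats from their group mean. This share was 2.12% with the distances taken from the group median, 8.67% in series A alone and 8.63% in series B alone. The spread was larger in AI rats in 38 (2.37%) and larger in AU rats in 43 (2.68%). No window passed the adjusted threshold, and the smallest adjusted p was 0.209. Without AI rat 1, 2 windows passed. By level, 0 of the 28 windows under 0.5 had an unadjusted p under 0.05 for spread, compared to 5.33% of the 375 windows from 0.5 to 0.7, 5.11% of the 900 windows from 0.7 to 0.8 and 5.0% of the 300 windows above.

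The 12 windows with the smallest p for spread were wider in AI rats in 7 and wider in AU rats in 5, and they are a description for the same reason as above. In chr8:17000000-17999999 (rn5, 40 sites) the AI rats ranged from 0.686 to 0.833 (median 0.795), and the AU rats ranged from 0.738 to 0.807 (median 0.791). The AU rats lay inside the range of the AI rats and the medians were close. The SD was 0.0593 in AI and 0.0227 in AU rats, and the difference in distance was 0.0363 (limma adjusted p = 0.209). The window chr9:89000000-89999999 (10 sites, with a value in 8 AI and 10 AU rats) lay between 0.589 and 0.879 in AI rats (median 0.755), and between 0.750 and 0.886 in AU rats (median 0.805). Its SD was 0.118 in AI and 0.0415 in AU rats (difference in distance 0.0743, limma adjusted p = 0.209).

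The largest difference in distance in this list, apart from a window with 11 sites, was in chr16:24000000-24999999 (37 sites). The AI rats ranged from 0.331 to 0.775 (median 0.647), and the AU rats ranged from 0.486 to 0.717 (median 0.667). The SD was 0.155 in AI and 0.0650 in AU rats. The difference in distance was 0.0950 (limma adjusted p = 0.392), but in series B alone it was -0.00376. By number series, the AI rats ranged from 0.647 to 0.775 in series A and from 0.331 to 0.509 in series B, without overlap. The AU rats ranged from 0.667 to 0.717 in series A and from 0.486 to 0.642 in series B. In chr1:202000000-202999999 (70 sites) the AI rats ranged from 0.555 to 0.747 (median 0.600), and the AU rats ranged from 0.572 to 0.707 (median 0.594). The SD was 0.0827 in AI and 0.0454 in AU rats, the difference in distance was 0.0418 (limma adjusted p = 0.411), and with site-centred ratios it was -0.000706. This window is also among those that differed most between the number series. In chr19:70000000-70999999 (11 sites), which the study lists under Pard3, a scaffold protein of cell polarity, the AI rats ranged from 0.727 to 1 (median 0.871) and the AU rats ranged from 0.850 to 0.960 (median 0.900). The SD was 0.0909 in AI and 0.0315 in AU rats (limma adjusted p = 0.481).

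Among the windows that were wider in AU rats, chr17:37000000-37999999 (40 sites) is listed by the study under Agtr1a, a receptor for angiotensin II. The AI rats ranged from 0.701 to 0.755 (median 0.734), and the AU rats ranged from 0.628 to 0.826 (median 0.724). All AI rats lay inside the range of the AU rats, on both sides of the AU median. The SD was 0.0194 in AI and 0.0628 in AU rats, the difference in distance was -0.0369 (limma adjusted p = 0.822), and that in level was 0.00977. In chr2:78000000-78999999 (22 sites) the SD was 0.0277 in AI and 0.0753 in AU rats, in chr15:66000000-66999999 (21 sites) 0.0409 and 0.0711, in chr11:47000000-47999999 (24 sites) 0.0425 and 0.109, and in chr10:16000000-16999999 (16 sites) 0.0355 and 0.103. The remaining windows, chr5:18000000-18999999 (39 sites) and chr20:13000000-13999999 (11 sites), were wider in AI rats, with an SD of 0.0395 against 0.0168 and of 0.217 against 0.105. None of these passed the adjusted threshold in limma.

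**Figure D4:**
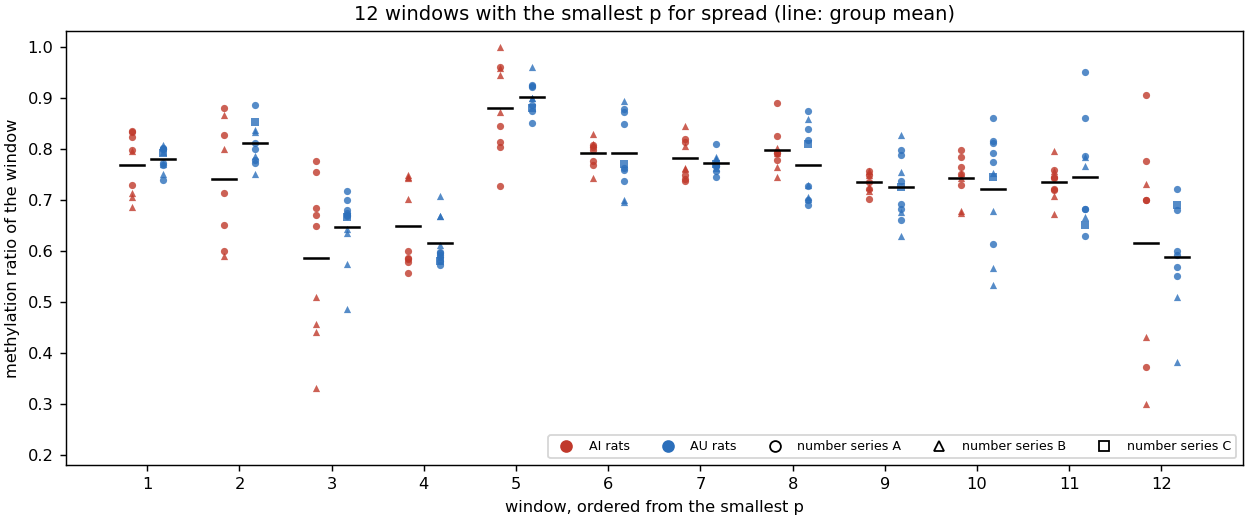
The methylation ratio of each rat is given for the 12 windows with the smallest p for spread, ordered from the smallest, with AI rats on the left and AU rats on the right of each pair and a line at the group mean. The AI rats are spread more widely in 7 windows and the AU rats in 5, with group means close to each other in most of them.

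The rat identifiers fall into number series, which are not described by the study and were used as a possible batch. Series A holds 5 AI and 6 AU rats, series B holds 4 AI and 4 AU rats, and 1 AU rat belongs to series C. The series differed in what they contribute to a window. Series A rats had 55557 ± 6292 (SD, 11 rats) autosomal CpG sites with a value and series B rats 32102 ± 9256 (SD, 8 rats), a difference of 23455 sites (exact permutation test, p = 1.32e-05, the smallest that these arrangements can give). The mean over windows was 0.740 ± 0.00272 (SD, 11 rats) in series A and 0.729 ± 0.00384 (SD, 8 rats) in series B, a difference of 0.0116 (exact permutation test, p = 1.32e-05, again the smallest possible), and 0.00563 with site-centred ratios (exact permutation test, p = 0.00187). The mean CHH ratio, which includes cytosines left unconverted by bisulfite, was 0.0166 in series A and 0.0157 in series B (exact permutation test, p = 0.00308).

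The difference between AI and AU rats was therefore also read within each series. For the mean over windows it was 0.000545 in series A (exact permutation test, p = 0.738) and -0.00362 in series B (exact permutation test, p = 0.171). The difference of both, 0.00416, was within what exchanging the groups inside each series gives (exact permutation test over 32340 arrangements, p = 0.206). With site-centred ratios it was 0.000615 in series A and -0.00522 in series B, and these were 0.00584 apart (p = 0.0818 by the same exact permutation). The difference in distance from the group mean, computed within each series, was 0.00103 in series A (exact permutation test, p = 0.775) and -0.00902 in series B (exact permutation test, p = 0.286). The log2 ratio of the SDs was -0.0178 in series A (exact permutation test, p = 0.892) and -0.251 in series B (exact permutation test, p = 0.229). In series B the AI rats had 36559 and the AU rats 27644 sites (exact permutation test, p = 0.200). The part of the number of sites in that ratio was not tested. The mean CHH ratio was 0.0163 in AI and 0.0162 in AU rats over all rats (exact permutation test, p = 0.773), 0.0168 and 0.0164 within series A (p = 0.0498, exact permutation test) and 0.0156 and 0.0159 within series B (p = 0.743, exact permutation test).

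Across windows, the series did not repeat each other. In 1542 windows a difference between AI and AU rats could be computed in both series, and it had the same direction in 772 of them (50.1%). The correlation of the differences across these windows was 0.0154, a description over windows from rats that do not overlap between the series. An unadjusted p under 0.05 was reached in both series by 4 windows, 2 of them in the same direction. The interaction of group and series had an unadjusted p under 0.05 in 97 of 1542 windows (6.29%) and none passed the adjusted threshold in limma. The smallest p for the interaction was in chr2:12000000-12999999 (14 sites), where the difference between AI and AU rats was 0.0634 in series A and -0.115 in series B (interaction 0.179, limma adjusted p = 0.243). The next were chr4:229000000-229999999 (interaction -0.370), chr4:192000000-192999999 (0.131), chr15:85000000-85999999 (0.146) and chr16:24000000-24999999 (0.172), each with a limma adjusted p of 0.555.

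The windows were also compared between the number series. With group as a covariate, 328 of 1603 windows had an unadjusted p under 0.05 between series A and B (20.5%), and 43 passed the adjusted threshold (2.68%), 28 of them higher and 15 lower in series A. With site-centred ratios, 120 windows had an unadjusted p under 0.05 and 8 passed the adjusted threshold, 4 of which were among the 43. With each window centred on its mean over the 20 rats, the correlation of a pair of rats over the 1369 windows with a value in every rat had a median of 0.0527 in 83 pairs of the same series and -0.126 in 107 pairs of different series. With site-centred ratios these medians were -0.0270 and -0.0697. It was -0.0916 in 36 pairs of AI rats, -0.0578 in 55 pairs of AU rats and -0.0336 in 99 pairs of 1 AI and 1 AU rat. With site-centred ratios these were -0.0439, -0.0550 and -0.0454. Within a series, the median was 0.0494 in 37 pairs of the same group and 0.0568 in 46 pairs of different groups, and -0.0253 and -0.0289 with site-centred ratios. Centring on the mean over 20 rats by itself puts the correlation of unrelated rats at about -0.0526, and the mean over all 190 pairs was -0.0421 (-0.0494 with site-centred ratios), so that these medians are read against that value and not against 0. They are a description and were not tested.

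In chr19:67000000-67999999, the window with the smallest p between the series and the second lowest level of all, every site lay within 3.21 kb, at chr19:67045574-67048782 (rn5, 104 sites). The series A rats ranged from 0.0385 to 0.0983 (median 0.0672), and the series B rats ranged from 0.371 to 0.510 (median 0.408), while the series C rat had 0.0478. The series did not overlap, and both contained AI and AU rats. The difference was -0.354 (limma adjusted p = 2.03e-11) and -0.326 with site-centred ratios, and 97 of the 98 sites that could be compared were lower in series A. The difference between AI and AU rats was -0.0123 in series A and -0.00239 in series B. The study's lists place a 5S_rRNA gene in this stretch, a ribosomal RNA that is encoded in many near-identical copies, so that reads of other copies may have been counted here. In the calls for aged and young rats, the 11 aged rats of series A lay between 0.0385 and 0.115 and the 8 aged rats of series B between 0.391 and 0.527. There the young rats lay between 0.442 and 0.497 in series A (3 rats), between 0.435 and 0.447 in series B (3 rats) and between 0.408 and 0.446 in series C (4 rats). The low values were thus found in the aged rats of series A and the aged rat of series C, and not in the young rats that carry numbers of the same series.

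The window chr1:13000000-13999999 (889 sites) had the next smallest p between the series. The series A rats ranged from 0.402 to 0.483 (median 0.438), and the series B rats ranged from 0.534 to 0.577 (median 0.558), without overlap. The difference was -0.112 (limma adjusted p = 8.47e-05) and -0.127 with site-centred ratios. The difference between AI and AU rats over all rats was 0.00509 (interval -0.0512 to 0.0614). It was -0.0134 in series A and 0.00742 in series B. In the calls for aged and young rats, the young rats of all series lay between 0.542 and 0.607, above all 11 aged rats of series A, whose highest value was 0.479. Other windows of this list changed with site centring. In chr1:58000000-58999999 (13 sites) the difference between the series was 0.332 and became 0.0642, and in chr1:202000000-202999999 it was -0.114 and became 0.0196. In chr15:73000000-73999999 (16 sites) it was -0.118 and became -0.00722.

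**Figure D5:**
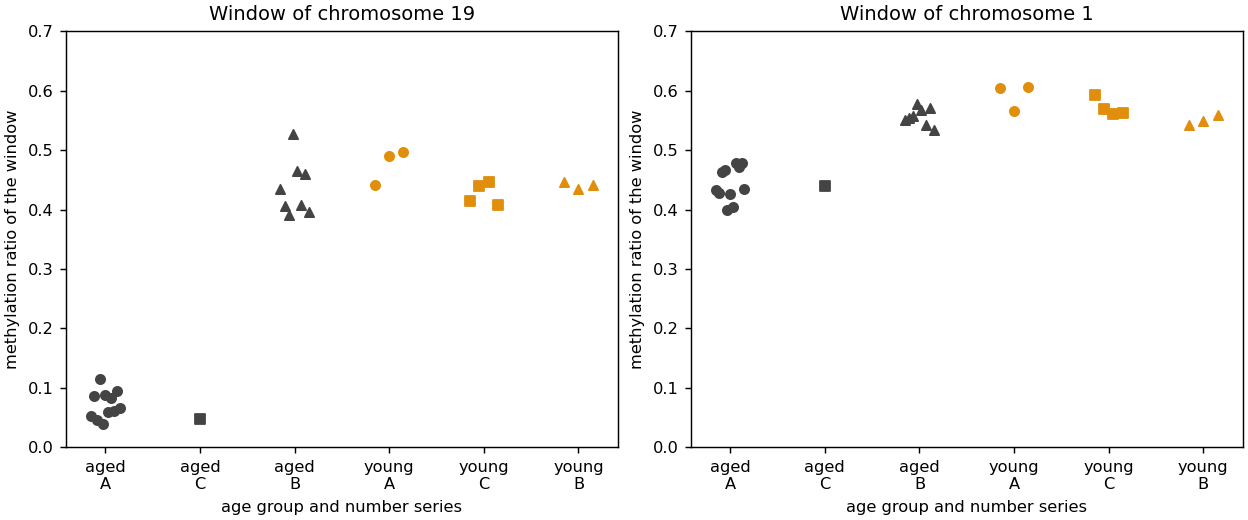
The methylation ratio of each rat in the calls for aged and young rats is given for the windows of chromosome 19 (left) and chromosome 1 (right) with the smallest p between the number series, by age and number series. The aged rats of series A and C lie below the aged rats of series B and below the young rats of every series in both windows.

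The windows were then read against CpGs that the study lists as correlated with both set shifting and RNA levels, a part of the CpGs it relates to behavior. These listed CpGs were chosen by the study on the same rats, and they give the gene names used here. Of the listed CpGs, 479 were autosomal and among the deposited sites, and they lay in 226 of the 1603 windows. To see whether a listed CpG stands for its window, it was removed together with all sites within 1000 bp, and 153 windows still had at least 10 sites and listed CpGs of 1 direction. The rest of the window had the direction of the listed CpGs in 80 of these (52.3%). In the 84 windows with listed CpGs higher in AI rats, 44 were higher in the rest of the window, with a median difference of 0.00103, and in the 69 windows with listed CpGs lower in AI rats, 36 were lower in the rest, with a median difference of -0.00233. The size of the difference had a median of 0.114 at the listed CpGs and of 0.0166 in the rest of the window. The listed CpGs were chosen on these rats for a relation to the score, so that a larger difference there was fixed in advance. A mean over at least 10 sites also varies less than a few sites, and the sizes are only a description. Across the 153 windows the correlation of the difference at the listed CpGs with that in the rest was -0.0313, as a description.

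Genes of synapses and ion channels were taken from a fixed list of 89 symbols, 11 of which the study lists with an autosomal CpG among the deposited sites. The windows of Efna5, Grin2b and Kcnip4 held 8 or 9 sites and were not tested. The other 8 genes lay in 10 windows. The AI mean was higher in 5 of these and lower in 5, and the differences ranged from -0.0360 to 0.0302 (median -0.00348), compared to -0.00166 in all windows. With site-centred ratios the AI mean was higher in 3 and lower in 7, and the direction changed in 4, namely in the windows of Cacnb4, Cntnap5c and Ctnna2 and in 1 window of Cntnap5b. For level, 1 of the 10 had an unadjusted p under 0.05, lower in AI rats (2.5% of all windows), and 0 were higher (1.43% of all windows). For spread, 0 of the 10 had an unadjusted p under 0.05 (5.05% of all windows). The 10 windows were found only through CpGs that the study chose on the same rats, and these CpGs remain in the window means. Genes of the list without such a CpG were not placed, so that these shares do not describe synapse genes as a set.

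The 1 window lies at Nlgn1, neuroligin 1, a postsynaptic adhesion molecule of excitatory synapses, with the listed CpG in an intron. In chr2:131000000-131999999 (28 sites) the AI rats ranged from 0.781 to 0.892 (median 0.835), and the AU rats ranged from 0.805 to 0.914 (median 0.871). Of the AI rats, 8 of 9 lay below the AU median, within ranges that overlapped widely. The difference was -0.0360 (interval -0.0715 to -0.000587, limma adjusted p = 0.994), and -0.0324 without the listed CpG and its neighbours (exact permutation test, unadjusted p = 0.0594). In the adjacent window with another listed CpG of Nlgn1, chr2:130000000-130999999 (23 sites), the difference was -0.0257 (interval -0.0744 to 0.0229). It was -0.00802 with site-centred ratios, -0.00283 in series A and -0.0554 in series B.

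The largest positive difference was at Rims2, a scaffold of the presynaptic active zone, in chr7:78000000-78999999 (17 sites). The AI rats ranged from 0.698 to 0.847 (median 0.781), and the AU rats ranged from 0.680 to 0.815 (median 0.725). The ranges overlapped and the difference was 0.0302 (interval -0.0137 to 0.0741, limma adjusted p = 0.994). Without the listed CpG and its neighbours it was 0.0471 over 14 sites (exact permutation test, unadjusted p = 0.0197), and with site-centred ratios 0.0120. The window of Erbb4, a receptor for neuregulins, had a difference of -0.0197 in chr9:75000000-75999999 (23 sites), with 0.0200 in series A and -0.0740 in series B. That of Cntn4, a contactin of axonal adhesion, had a difference of -0.0101 in chr4:203000000-203999999 (31 sites), with -0.0294 in series A and 0.0270 in series B. For Cntnap5b, a contactin associated protein, the difference was 0.00318 in chr13:26000000-26999999 (61 sites) and -0.0113 in chr13:27000000-27999999 (22 sites), and for the related Cntnap5c it was 0.00804 in chr13:12000000-12999999 (88 sites). The differences for Cacnb4, a subunit of voltage-gated calcium channels, and Ctnna2, a catenin of neuronal adherens junctions, were 0.00629 in chr3:43000000-43999999 (40 sites) and 0.00643 in chr4:173000000-173999999 (22 sites). For Ctnna2 it was -0.0247 in series A and 0.0792 in series B, and for Cacnb4 -0.000309 and 0.0184. In the first window of Cntnap5b it was 0.00390 in series A and -0.00512 in series B. All of these had a limma adjusted p of 0.994.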

How the data were processed

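The deposited values are fractions, namely the ratio of methylated reads to all reads at each cytosine. The authors trimmed reads (Trimmomatic, FastQC), filtered unconverted bases, aligned the reads with BSMAP to rn5 and called a site where it had 5 or more reads in a rat and was measured in 3 or more rats of each group. Versions are not given in the sources used here. Read numbers per rat and site are not part of these values, so that no coverage minimum or interval from counts could be used.

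Autosomal CpG ratios of the AI and AU calls were averaged per rat in windows of 1 Mb (position divided by 1000000, rounded down) with at least 10 sites and 3 rats per group. The ratios of the calls for aged and young rats and the CHH ratios were used beside them. Other sets of calls were not used here. Levels were compared with limma (3.58.1, R 4.3.3) with group as the factor and Benjamini-Hochberg adjustment over all windows. Spread was compared in the same way on the absolute deviation from the group mean, multiplied by the square root of n/(n - 1). The fits were tested on simulated data. Values per rat were compared with 2-sided exact permutation tests (Python 3.11.15, numpy 2.4.6, scipy 1.17.1). Rats are separate animals. The windows and lists described were chosen with earlier results of these data known. Named windows were the 12 with the smallest p for level and for spread, the 5 for the interaction and the 3 highest and 3 lowest in level. The 5 windows for number series and the 2 with at least 100 sites were added after the values were seen. Gene names are those the study lists at positions in rn5, and no annotation of that build was used, so that no sequence is shown. Alternatives covered window size, site minimum, averaging, weights, covariates, number series and leaving out each rat.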

Additional observations from a re-analysis of the deposited data

Results flagged for a closer look

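In each group of 4 to 10 rats with a value, the highest and lowest rat was compared with the others by Dixon's test, which flags about 1 in 20 groups by chance. This was done for 64 groups and 7 held such a rat. Groups with a value in all 11 AU rats lay outside this range and were not tested. AI rats were thus tested more often, and the flags do not compare AI with AU rats. The distance of AI rat 9 from its group mean was 0.0711, with the next AI rat at 0.0524, and this rat had the fewest autosomal CpG sites among the AI rats (24898). The part of the number of sites in this value was not tested. AI rat 7 had a level of 0.792 in chr1:149000000-149999999 (next AI rat 0.681) and of 0.398 in chr19:5000000-5999999 (next AI rat 0.278). AI rat 6 had a level of 0.753 in chr4:229000000-229999999 (next AI rat 0.459). AI rat 8 had a level of 0.792 in the window of Cntnap5b, chr13:26000000-26999999 (next AI rat 0.735), and of 0.741 in the window of Cacnb4, chr3:43000000-43999999 (next AI rat 0.813). AU rat 9 had a level of 0.743 in chr17:15000000-15999999 (next AU rat 0.875). All of these rats belong to series B, whose rats have fewer sites. The difference between AI and AU rats in the mean over windows did not pass the threshold between series A and series B (exact permutation test, p = 0.206, and p = 0.0818 with site-centred ratios).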

How the results depend on the processing

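For level, no window passed the adjusted threshold under any of the 42 alternatives, and the share with an unadjusted p under 0.05 was between 2.86% and 4.80% over the 22 alternatives of processing and samples and between 2.81% and 3.93% when each rat was left out. For spread, 1 window passed the adjusted threshold with at least 5 sites, in the calls for aged and young rats, in series B alone and with weights by the number of sites, and between 0 and 2 when a rat was left out (2 without AI rat 1). The unadjusted share for spread was 2.78% with sites present in all 20 rats (144 windows), 8.67% in series A, 8.63% in series B, 2.12% with deviations from the group median, and between 4.49% and 5.93% when each rat was left out. For the interaction of group and series, 1 window passed with weights. The comparison of series A with B fell from 20.5% to 7.49% of windows, and from 43 to 8 adjusted, with site-centred ratios, an alternative chosen after seeing the data. The difference in the mean over windows was 0.000272 with sites present in all rats (exact permutation test, p = 0.888) and 0.000545 in series A (p = 0.738, exact permutation test), and from -0.00341 to -0.000379 without each rat. That in distance was 0.00103 in series A (exact permutation test, p = 0.775) and -0.00902 in series B (exact permutation test, p = 0.286), and from -0.00477 to 0.00187 without each rat. It was 0.000712 without AI rat 2, 0.000416 without AI rat 3, 0.00187 without AU rat 8 and 0.00156 without AU rat 11. The log2 ratio of SDs was -0.251 in series B and lay between -0.207 and 0.0417 without each rat, with 0.0417 without AU rat 8 and 0.0124 without AU rat 11. The 12 windows named for level kept their direction and stayed over the adjusted threshold in the 34 alternatives computed for them. They were picked for a small p, and the alternatives reuse these rats, so that a kept direction is no independent support. The difference shrank in some alternatives, as far as -0.00563 in chr4:212000000-212999999 and -0.0137 in chr7:109000000-109999999. Other window sizes, shifted windows and other minimum numbers of sites were not computed for single named windows. Of the 12 named for spread, the difference in distance reversed for chr16:24000000-24999999 in series B (-0.00376). For chr1:202000000-202999999 it was -0.000706 with site-centred ratios, -0.00150 with deviations from group and series and -0.0117 in series B, and it passed with weights (adjusted p = 0.0147, limma). It was 0.00157 for chr2:78000000-78999999 in the calls for aged and young rats. For chr5:18000000-18999999 it was -0.00877 with medians over sites and -0.000909 with clusters. It was 0.00260 for chr10:16000000-16999999 with medians and -0.00125 for chr20:13000000-13999999 with site-centred ratios. For chr8:17000000-17999999 and chr9:89000000-89999999 the adjusted p was 0.0489 and 0.0342 without AI rat 1 (limma). The causes were not tested. Only-complete sites gave no value for the named windows. The depth of each rat at each site is not part of these values, so that its share in the precision of a window was not computed. No paired analysis was possible because the replicate numbers are in accession order and pair no rats.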
